A study of Mus musculus with 7 samples.

Results

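The 6 genes described here mark olfactory sensory neurons that do not signal through the usual odorant pathway. Gucy2d, Cnga3, Pde2a and Car2 belong to the guanylate cyclase D (GC-D) neurons, whose axons end in the necklace glomeruli of the olfactory bulb, and Trpc2 and Gucy1b2 belong to a separate set of neurons of the main olfactory epithelium. The genes were taken by symbol from tables of 50600 genes, and all 6 were present. Whole olfactory epithelium, the tissue of the nose that holds the odour-sensing neurons, was sequenced from mice of 3 genotypes at postnatal day 7. In Amigo1neo/neo mice (neo, 3 libraries) a neomycin cassette stands in place of the coding sequence of Amigo1, a leucine-rich repeat cell adhesion gene. Amigo1-/- mice (KO, 3 libraries) lack Amigo1, and how that allele was made, and whether it keeps any of the cassette, is not stated in the labels. An Amigo1+/+ wild-type mouse (WT) gave 1 library, which has no replicate. The labels name no other allele, strain or treatment. The names of the neo libraries carry another date-like number and another code than those of the KO and WT libraries, which the labels do not explain, so neo genotype and whatever these stand for cannot be told apart.

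In canonical olfactory neurons, odorant receptors raise cyclic AMP through the cyclase Adcy3, and the channel formed by Cnga2, Cnga4 and Cngb1 opens. GC-D neurons use cyclic GMP instead: the receptor cyclase Gucy2d makes it, the channel subunit Cnga3 is gated by it, and the phosphodiesterase Pde2a breaks it down. Their known stimuli include the peptides guanylin and uroguanylin, carbon disulfide, and carbon dioxide, which the carbonic anhydrase Car2 turns into bicarbonate that activates Gucy2d. Trpc2 is a cation channel best known from the vomeronasal organ. Gucy1b2 is a soluble guanylate cyclase subunit, and mouse neurons that carry both of them are known to respond to low oxygen.

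Total gene counts were 14879415 to 21063122 in neo, 17008840 to 18697771 in KO and 21343058 in WT. Amigo1 had 11, 5 and 1 counts in neo and 0, 8 and 16 counts in KO, against 744 counts in WT. Omp, the classic mature olfactory neuron marker, reached 862 to 1162 CPM (reads of a gene scaled to library size) in neo, 783 to 851 CPM in KO and 964 CPM in WT, so the defining marker of the labelled tissue was abundant in every library. By Xist and Ddx3y, neo replicate 1 and the WT library came from females and the other 5 from males: Xist had 26883 counts in neo replicate 1 and 13995 in WT, and 5 to 78 in each of the others. In whole tissue, fewer cells of a type and less RNA per cell cannot be told apart.

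The 6 genes spanned a wide range of levels, and none of them differed between the genotypes past the threshold. On the length-corrected TPM scale (a gene's share of transcripts), Car2 averaged 71.7 TPM over the 7 libraries, Pde2a 8.97 TPM, Gucy1b2 2.45 TPM, Gucy2d 1.499 TPM, Cnga3 0.407 TPM and Trpc2 0.370 TPM. Car2 stood above Pde2a, and Pde2a above Gucy1b2, in every library. Gucy1b2 also exceeded Gucy2d in every library, by 1.08 to 2.62 times, although their ranges over the libraries overlapped (1.35 to 4.00 TPM and 0.56 to 2.38 TPM), as did those of Cnga3 (0.30 to 0.51 TPM) and Trpc2 (0.00 to 1.13 TPM). Among the 30883 genes with any TPM, Car2 lay above 93.9% and Pde2a above 67.1% of them, Gucy1b2 above 53.3%, Gucy2d above 48.6%, Cnga3 above 36.9% and Trpc2 above 36.0%.

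**Figure D1:**
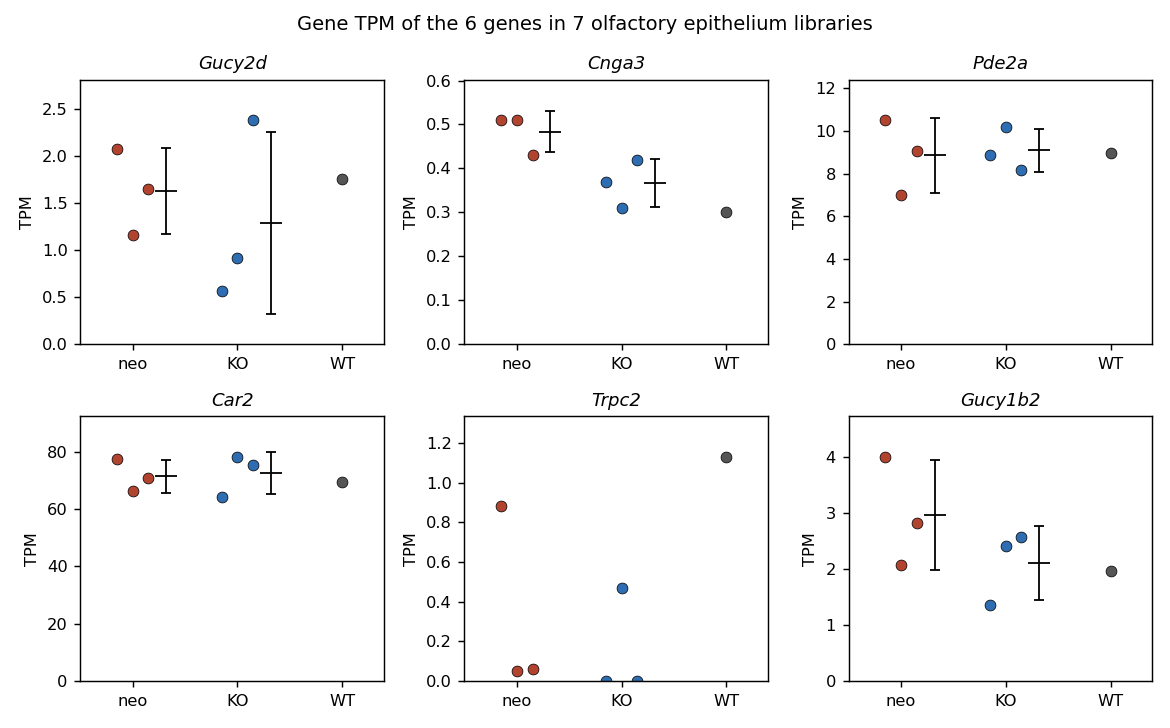
Gene TPM of the 6 genes, with 1 point per library and the groups neo, KO and WT from left to right. Horizontal bars and whiskers give mean ± SD of the 3 neo and 3 KO libraries, left out for Trpc2, which was listed at 0 in 2 KO libraries. The neo and KO points overlap for every gene except Cnga3, whose TPM was 0.43 to 0.51 in neo and 0.31 to 0.42 in KO. How many of all genes separate on TPM was not computed.

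Gene counts were compared with edgeR's quasi-likelihood test, with Benjamini-Hochberg adjustment over all genes tested and a threshold of 0.05. Of the 6 genes, 4 passed the filter on low counts (Gucy2d, Cnga3, Car2 and Gucy1b2), and 0 of these 4 passed the threshold for neo against KO, in a comparison that called 0.017% of 17638 genes. None of the 4 reached an unadjusted p under 0.05 either, against 9.32% of all genes, and DESeq2 and limma on TPM called 0 of the members they tested. In neo against WT 0 of 4 were called, where the whole table gave 0.0105% (2.97% at an unadjusted p under 0.05), and in KO against WT 0 of 4, where it gave 0.00523% (0.727%). None of the 4 reached an unadjusted p under 0.05 in these comparisons either. In CPM 0 of the 4 had neo and KO groups that did not overlap, against 7.58% of all genes with neo higher and 7.98% with neo lower. The authors' deposited table, whose fold changes run as KO over neo, likewise listed adjusted p-values of 0.996 for Car2, 0.999 for Gucy2d, 0.999 for Gucy1b2 and 0.9997 for Cnga3. It gave no adjusted p for Pde2a and no fold change for Trpc2.

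**Figure D2:**
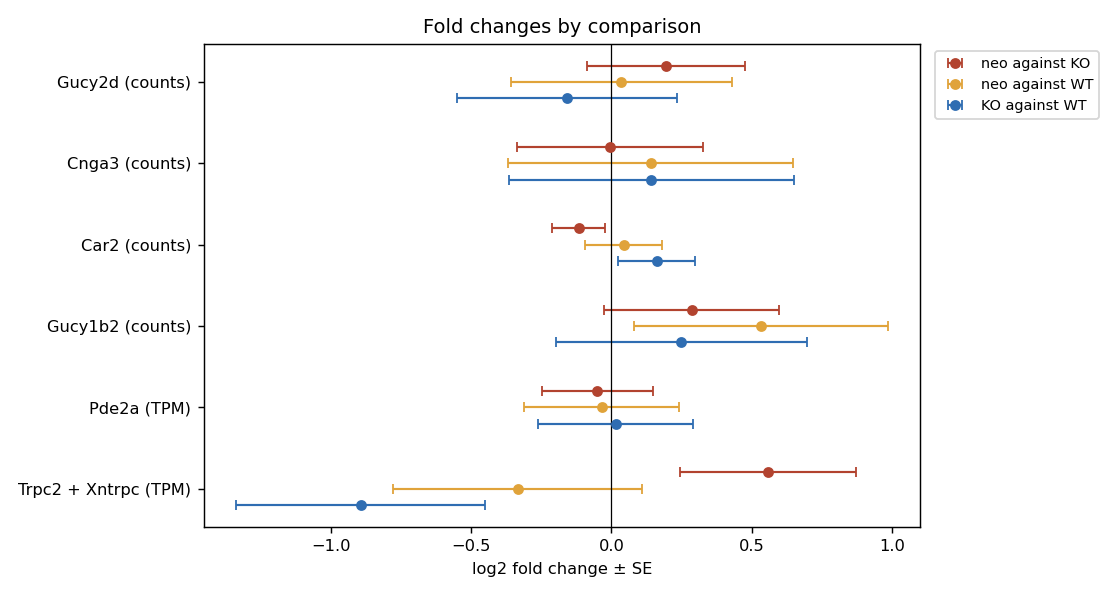
Log2 fold changes ± SE for neo against KO, neo against WT and KO against WT, from edgeR on counts for 4 genes and from limma on log2(TPM + 0.1) for Pde2a and for the sum of Trpc2 and Xntrpc. The 2 comparisons with WT share its single library. Among values for neo against KO, Trpc2 + Xntrpc lies farthest from 0, at 0.56, and Cnga3 lies closest, at −0.0037.

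Gucy2d, the receptor cyclase that defines GC-D neurons (chr7:98440416-98477479, plus strand, GRCm38), was detected in all 7 libraries at a low level. It had 61, 46 and 43 counts in neo replicates 1 to 3 and 26, 45 and 57 counts in KO replicates 1 to 3, against 58 counts in WT. Scaled to depth these were 2.60, 2.75 and 2.86 CPM in neo, 1.59, 2.41 and 3.15 CPM in KO and 2.67 CPM in WT. The neo values lay close together and inside the KO range, which held both the lowest and the highest library. The log2 fold change of neo against KO was 0.19 ± 0.28 (SE; edgeR adjusted p = 0.877), 0.03 ± 0.39 for neo against WT and −0.16 ± 0.39 for KO against WT. Pooled counts gave a neo to KO ratio of 1.13 with an exact 95% interval of 0.883 to 1.44, which covers counting error only. Over 7 libraries its CPM varied by 19.0% (coefficient of variation), where counting alone at its mean of 48 counts gives 14.4%.

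The deposited RSEM values split Gucy2d among 4 annotated transcripts. Gucy2d-204, with 602 bases and 0 coding bases, had 0.90, 0.22 and 0.18 TPM in neo. It was listed at 0, 0 and 1.21 TPM in KO, against 0.82 TPM in WT. The gene TPM of Gucy2d, also in its ratios to other genes, includes this transcript. Gucy2d-203, with 3351 coding bases, had 1.04, 0.52 and 1.24 TPM in neo and was listed at 0, 0 and 1.010 TPM in KO, against 0.94 TPM in WT. Gucy2d-201, with 3348 coding bases, was listed at 0, 0.42 and 0 TPM in neo, at 0.56, 0.92 and 0 TPM in KO and at 0 in WT. No library was at 0 for both, and for Gucy2d-203 the log2 fold change of neo against KO was 2.14 ± 1.18 (SE; limma adjusted p = 0.865), and 3.30 without KO replicate 3. The 250 bases before the start of Gucy2d-203 (RefSeq, GRCm38.p6, chr7:98440166-98440415, plus strand) are shown because they belong to the cyclase that gives these neurons their name. Capitals mark CG dinucleotides.

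Gucy2d: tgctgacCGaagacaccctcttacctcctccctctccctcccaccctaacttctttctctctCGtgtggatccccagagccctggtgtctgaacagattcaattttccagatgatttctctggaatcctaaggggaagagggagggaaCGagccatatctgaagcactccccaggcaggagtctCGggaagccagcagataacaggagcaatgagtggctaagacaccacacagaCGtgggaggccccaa

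Cnga3, the cyclic GMP-gated channel subunit also known from cone photoreceptors (chr1:37214434-37263384, plus strand, GRCm38), was the scarcest gene that the count table could measure. It had 15, 17 and 12 counts in neo and 15, 15 and 13 counts in KO, against 16 counts in WT. The groups coincided, and the 7 libraries differed by less than counting error: the coefficient of variation of CPM was 15.9%, where counting alone gives 26.1%. A single library's 12 counts carry an exact 95% Poisson interval of 6.20 to 21.0 counts. The log2 fold change of neo against KO was −0.0037 ± 0.33 (SE; edgeR adjusted p = 0.998), and the pooled neo to KO ratio of 0.983 had a counting interval of 0.631 to 1.53. It was 0.14 ± 0.51 for neo against WT and 0.14 ± 0.51 for KO against WT, 2 comparisons that share the WT library. By TPM, Cnga3 had 0.51, 0.51 and 0.43 in neo and 0.37, 0.31 and 0.42 in KO, against 0.30 in WT. Those groups did not overlap, unlike the counts, and the gene stayed under the mean of 0.5 TPM required for the test on that scale. How many of all genes separate in this way on TPM was not computed. Over all genes tested, the median log2 fold change of neo against KO was 0.097 on TPM and −0.0022 on counts.

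Cnga3 was far below the canonical channel. The TPM of Cnga2 was 449, 344 and 450 times that of Cnga3 in neo and 477, 562 and 376 times in KO, against 660 times in WT. Among 6 cyclic nucleotide-gated channel genes, Cnga3 was number 4 by mean TPM, below Cnga2 (186 TPM), Cnga4 (36.6 TPM) and Cngb1 (23.9 TPM). Cngb3, its partner subunit in cones, came next at 0.260 TPM, and the range of Cngb3 (0.15 to 0.35 TPM) overlapped that of Cnga3.

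Car2, the cytosolic carbonic anhydrase that hydrates carbon dioxide (chr3:14886273-14900770, plus strand, GRCm38), had by far the highest level. It lies 93.3 Mb from Amigo1 on the same chromosome. Counts were 1861, 1506 and 1259 in neo and 1362, 1789 and 1722 in KO, against 1779 in WT. In CPM these were 79.2, 90.0 and 83.7 in neo, 83.4, 95.9 and 95.1 in KO and 81.8 in WT, so KO replicates 2 and 3 were highest and neo replicate 1 lowest, with overlap between neo and KO. The log2 fold change of neo against KO was −0.12 ± 0.10 (SE; edgeR adjusted p = 0.749), 0.04 ± 0.14 for neo against WT and 0.16 ± 0.14 for KO against WT. A pooled neo to KO ratio of 0.912 had a counting interval of 0.876 to 0.950, while the 7 libraries varied by 7.64% where counting alone gives 2.49%. By TPM the values were 77.4, 66.2 and 70.7 in neo and 64.1, 78.3 and 75.5 in KO, against 69.4 in WT, with full overlap.

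Car2 is also expressed by osteoclasts and by cells of the red blood lineage, as background, so the markers of both are given beside it. Summed osteoclast markers (10 of 10 detected, led by Ctsk) were 325 to 584 CPM in neo and 709 to 1397 CPM in KO, against 680 CPM in WT, with no overlap between neo and KO. Of the 9 osteoclast markers tested, 9 were lower in neo, and edgeR called 0 of them, while 6 had an unadjusted p under 0.05 and DESeq2 called Mmp9 and Atp6v0d2. Summed erythroid markers (7 of 7 detected, led by Hbb-bs) were 229 to 372 CPM in neo and 261 to 371 CPM in KO, against 429 CPM in WT, with overlap. Their part in the Car2 level was not tested. Among 16 carbonic anhydrase genes Car2 was number 2 by mean TPM, behind Car6 (127 TPM), a secreted enzyme, whose range of 60.5 to 165 TPM overlapped that of Car2.

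Set against the mature olfactory neurons of the same library, Car2 was lower in every neo library than in every KO library. Per 10000 counts of 12 mature neuron markers, Car2 had 192, 198 and 205 counts in neo and 215, 272 and 272 counts in KO, against 204 counts in WT. The log2 ratio of the group means was −0.35, with p = 0.1 in an exact two-sided permutation test, the smallest that 3 libraries against 3 can give, and 0.4 after adjustment over 4 members. Per total gene counts instead of marker counts, the log2 ratio for Car2 was −0.065 (exact p = 0.5), and neo and KO overlapped. The share of all genes that separate between neo and KO on the per-marker scale was not computed. The marker sum itself stood at 4087 to 4548 CPM in neo and 3498 to 3880.5 CPM in KO, against 4002 CPM in WT. Its neo and KO values did not overlap, so dividing by it lowers every gene in neo relative to KO. All 12 of its markers had positive log2 fold changes for neo against KO, against 49.6% of all genes, and edgeR called 0 of them, with 3 at an unadjusted p under 0.05. On the same scale the log2 ratio was −0.05 for Gucy2d (exact p = 0.9), −0.23 for Cnga3 (exact p = 0.2) and 0.05 for Gucy1b2 (exact p = 0.9), with overlap in each case.

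**Figure D3:**
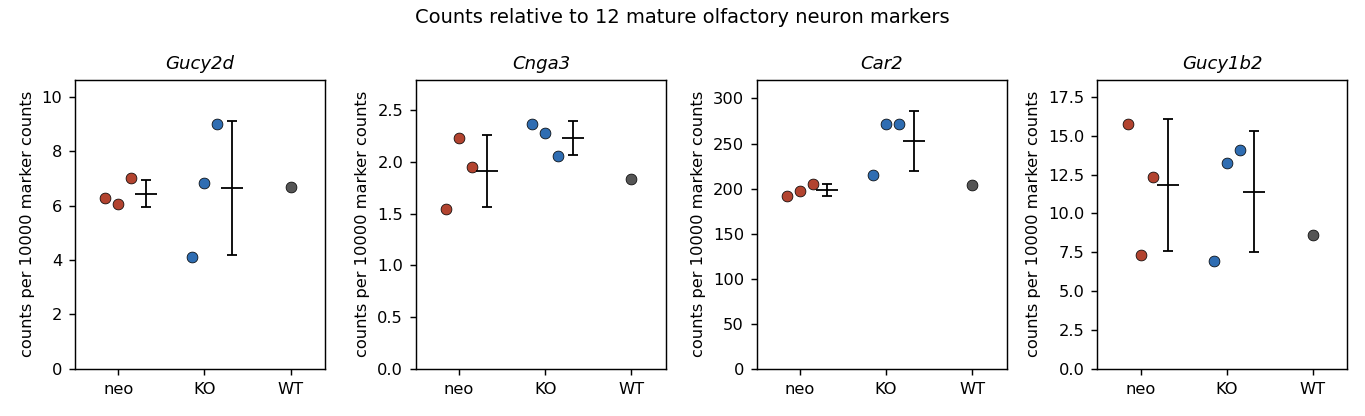
Counts of Gucy2d, Cnga3, Car2 and Gucy1b2 per 10000 counts of 12 mature olfactory neuron markers, with 1 point per library and the groups neo, KO and WT from left to right. Bars and whiskers give mean ± SD of 3 libraries. Only for Car2 do neo (192 to 205) and KO (215 to 272) not overlap. The share of all genes that separate on this scale was not computed, and the marker sum itself was higher in every neo library than in every KO library.

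Pde2a, the cyclic GMP-stimulated phosphodiesterase of GC-D neurons (chr7:101421691-101512827, plus strand, GRCm38), was nearly missing from the count table and clearly present in the TPM table. It had 4, 0 and 2 counts in neo and 0, 3 and 1 counts in KO, against 1 count in WT. By TPM it had 10.51, 7.00 and 9.07 in neo and 8.88, 10.19 and 8.19 in KO, against 8.95 in WT, with overlap. In GENCODE vM21, 2194 of its 6149 exonic bases (35.7%) belong to no other gene, and the rest also lie in exons of Gm45837, a same-strand gene that spans Arap1 and Pde2a. In the Pde2a transcripts with the highest mean TPM, fewer bases belong to no other gene. Pde2a-201 has 325 of 4218, Pde2a-204 has 209 of 4100 and Pde2a-209 has 150 of 4105. Gm45837 was at 0 counts in 6 libraries and at 1 in WT, and its TPM was listed at 0 in all 7. Of 12284 genes with a mean TPM of at least 5, 312 shared this pattern of a mean count under 2. On the TPM scale, with limma on log2(TPM + 0.1), which understates changes of low genes, neo against KO gave −0.05 ± 0.20 for Pde2a (SE; limma adjusted p = 0.975), in a fit that called 0.00529% of 18919 genes and whose median over all genes was 0.10. The value was −0.03 ± 0.28 for neo against WT, where limma called 0.0159% of genes, and 0.02 ± 0.28 for KO against WT. Among 24 phosphodiesterase genes Pde2a was number 9 by mean TPM. Pde1c and Pde4a, the phosphodiesterases of canonical olfactory neurons, had 3.81 to 5.71 and 3.14 to 4.36 times its TPM over the 7 libraries.

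The total TPM of Pde2a varied little, while its split between start sites varied widely. Of its 12 annotated transcripts, 4 begin within 200 bases of an upstream start (position 101421691) and 2 within 200 bases of a downstream start 28.8 kb further on (position 101450520). The other 6 begin elsewhere and together had 0 to 1.05 TPM per library. Transcripts of the upstream start summed to 9.86, 3.16 and 2.24 TPM in neo and 4.63, 6.53 and 7.05 TPM in KO, against 5.09 TPM in WT. Those of the downstream start summed to 0.06, 3.84 and 6.82 TPM in neo and 3.80, 2.61 and 1.14 TPM in KO, against 3.86 TPM in WT. The upstream start thus held 93.8%, 45.1% and 24.7% of Pde2a TPM in neo and 52.1%, 64.1% and 86.1% in KO, against 56.9% in WT. Both extremes were neo libraries, and the KO and WT values lay between them. Most of the upstream signal in neo replicate 1 was Pde2a-209, a transcript annotated to undergo nonsense-mediated decay, at 8.32 TPM. It was listed at 0 in the other 2 neo libraries. In KO it had 3.32, 3.12 and 6.40 TPM, against 4.24 TPM in WT. It was thus also most of the upstream signal in KO replicates 1 and 3 and in WT. Pde2a-209 begins at position 101421846, while the upstream window printed below lies before Pde2a-201. RSEM TPM values carry no depth, so the counting error of this split is unknown.

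**Figure D4:**
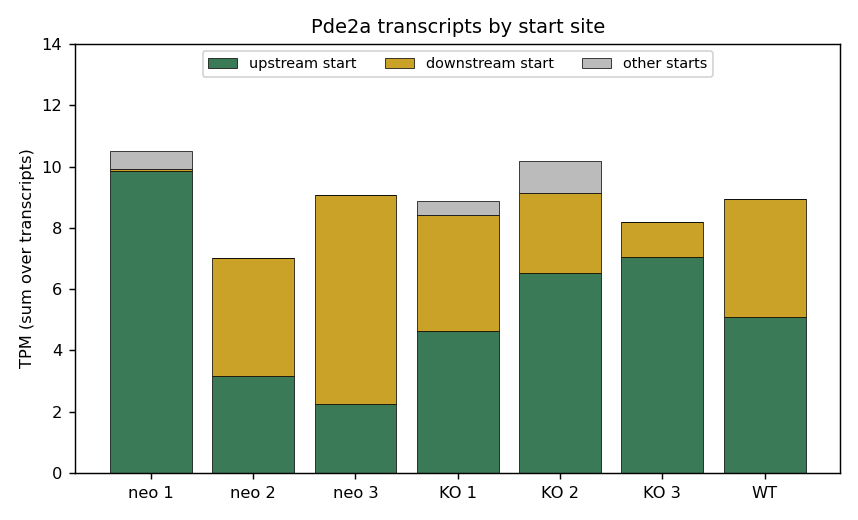
Pde2a TPM in each library, stacked by start site, with neo libraries left, then KO, then WT. The totals lie between 7.00 and 10.51 TPM, while the upstream share runs between 24.7% and 93.8%, both in neo libraries.

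Across transcripts, limma called 0 of 44981 for neo against KO (0%), with 2336 at an unadjusted p under 0.05, and the median over all transcripts was 0.13 on the log2 scale. Pde2a-201 had 0.71 ± 0.52, Pde2a-204 −0.53 ± 1.39 and Pde2a-209 −3.24 ± 1.71 (SE; limma adjusted p of 0.881, 0.965 and 0.865). Leaving out 1 library moved these widely: Pde2a-209 was −5.38 without neo replicate 1 and −2.18 without neo replicate 2 or 3, and Pde2a-201 was 1.09 without KO replicate 2 and 0.29 without KO replicate 3. With all 6 libraries, none of the 8 tested transcripts of the 6 genes and Xntrpc had an unadjusted p under 0.05. The 250 bases before each Pde2a start (RefSeq, GRCm38.p6, plus strand; chr7:101421441-101421690 upstream and chr7:101450270-101450519 downstream) are shown because the TPM moved between these starts. Capitals mark CG dinucleotides, of which each of these windows holds 2, against a median of 6 over 32851 promoters. RefSeq has 3 more Pde2a windows, before positions 101451016, 101451252 and 101456062, which hold 15, 19 and 6.

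Pde2a upstream: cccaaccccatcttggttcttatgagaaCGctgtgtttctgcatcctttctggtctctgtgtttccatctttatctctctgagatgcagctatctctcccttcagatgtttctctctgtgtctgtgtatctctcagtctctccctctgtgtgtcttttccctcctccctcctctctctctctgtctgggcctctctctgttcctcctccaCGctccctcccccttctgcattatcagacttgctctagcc
Pde2a downstream: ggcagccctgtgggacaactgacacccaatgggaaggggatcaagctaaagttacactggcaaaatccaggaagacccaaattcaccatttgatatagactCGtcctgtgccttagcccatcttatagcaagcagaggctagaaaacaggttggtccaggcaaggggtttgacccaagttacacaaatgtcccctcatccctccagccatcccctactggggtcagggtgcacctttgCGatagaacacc

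Gucy1b2, the soluble guanylate cyclase subunit of the Trpc2 neurons (chr14:62392676-62456289, minus strand, GRCm38), varied most among the genes the count table could measure. It had 153, 56 and 76 counts in neo and 44, 87 and 89 counts in KO, against 75 counts in WT. These were 6.51, 3.35 and 5.05 CPM in neo, 2.69, 4.66 and 4.92 CPM in KO and 3.45 CPM in WT. Neo replicate 1 was highest and KO replicate 1 lowest, 2.42-fold apart, and the groups overlapped. Its coefficient of variation was 29.7%, where counting alone gives 10.99%. The log2 fold change was 0.29 ± 0.31 for neo against KO (SE; edgeR adjusted p = 0.826), 0.53 ± 0.45 for neo against WT and 0.25 ± 0.45 for KO against WT. The value for neo against KO was 0.04 without neo replicate 1 and 0.06 without KO replicate 1. Its 2 full-length transcripts, Gucy1b2-201 and Gucy1b2-203, had log2 fold changes of 0.22 ± 0.66 and 0.11 ± 0.69 for neo against KO (SE; limma adjusted p of 0.971 and 0.990). The 250 bases before the start of Gucy1b2-201 (RefSeq, GRCm38.p6, chr14:62456290-62456539, minus strand) are shown as the counterpart of the Gucy2d window, with CG dinucleotides in capitals.

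Gucy1b2: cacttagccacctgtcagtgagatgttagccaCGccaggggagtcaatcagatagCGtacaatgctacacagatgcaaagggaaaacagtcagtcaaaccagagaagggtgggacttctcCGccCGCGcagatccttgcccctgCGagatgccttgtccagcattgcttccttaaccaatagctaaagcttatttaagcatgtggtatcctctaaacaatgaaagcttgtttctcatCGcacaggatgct

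The Gucy2d window holds 5 CG dinucleotides and the Gucy1b2 window 7, close to the median of 6 for all 32851 RefSeq promoters, whose quartiles are 2 and 16. RefSeq promoters matched 5 of the 6 genes, with 10 windows in all, and Car2 had no entry. Searched on both strands, the Olf-1/Ebf core CCCNNGGG was in 0 of the 10 windows (11.8% of all promoters). The homeodomain core TAATTA was in 0 (4.84%) and the cyclic AMP response element TGACGTCA in 0 (1.55%). The TATA box sequence TATAAA was in 1 (12.4%), before Cnga3-201, and there only on the strand opposite to the gene.

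Trpc2, the cation channel (chr7:102083116-102096396, plus strand, GRCm38), had 0 counts in all 7 libraries. In GENCODE vM21 all 2874 of its exonic bases also lie in exons of the same-strand genes Xntrpc, a readthrough of Xndc1 into Trpc2, and Xndc1, so 0 bases are its own, and the sources used here do not say how reads over shared exons were counted. By TPM it had 0.88, 0.05 and 0.06 in neo and was listed at 0, 0.47 and 0 in KO, against 1.13 in WT. The WT library and neo replicate 1, the female libraries, were highest. Xntrpc-202, the only one of 4 Xntrpc transcripts listed above 0, shares 2803 bases with Trpc2 and is annotated to undergo nonsense-mediated decay. It had 4.06, 2.77 and 3.43 TPM in neo and 1.95, 3.06 and 2.12 TPM in KO, against 3.50 TPM in WT. In every library the TPM of Xntrpc exceeded that of Trpc2.

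The Trpc2 and Xntrpc values were then summed, a choice made after the counts had been seen. The sum was 4.94, 2.82 and 3.49 TPM in neo and 1.95, 3.53 and 2.12 TPM in KO, against 4.63 TPM in WT, and neo and KO overlapped. By limma the log2 fold change was 0.56 ± 0.31 for neo against KO (SE; adjusted p = 0.829), −0.33 ± 0.44 for neo against WT and −0.89 ± 0.44 for KO against WT. For neo against KO it was 0.35 without neo replicate 1 and 0.81 without KO replicate 2. In GENCODE vM21, which holds another version of Xntrpc than the count table does, 468 exonic bases of Xntrpc belong to no other gene, all beyond the end of Trpc2. In the count table Xntrpc had 61, 28 and 28 counts in neo and 19, 38 and 25 counts in KO, against 47 counts in WT. Its log2 fold change of neo against KO was 0.43 ± 0.31 (SE; edgeR adjusted p = 0.715), 0.21 without neo replicate 1 and 0.70 without KO replicate 2. Here too neo replicate 1 (2.60 CPM) and WT (2.16 CPM) were highest, and Xndc1, the upstream partner, had 7.96 CPM in neo replicate 1 and 6.11 CPM in WT, against 3.17 to 4.90 CPM in the 5 male libraries. With 2 female libraries of different genotypes, the part of sex was not tested.

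Because Trpc2 is a vomeronasal channel, vomeronasal markers are given beside it. Summed over 22 genes, of which 0 were at 0 in all libraries, they came to 812 to 1180 CPM in neo and 638 to 869 CPM in KO, against 1001 CPM in WT, with overlap, and Lcn3, a lipocalin of the nasal and vomeronasal glands, led the sum. Of the 22 markers, only 7 passed the filter on low counts for neo against KO, with 6 positive and 1 negative log2 fold changes, and 1 of the 22 averaged under 1 count. Lcn3 had a log2 fold change of 0.93 ± 0.41 and Meis2 of 0.07 ± 0.13 for neo against KO (SE; edgeR adjusted p of 0.557 and 0.910). The part of the vomeronasal markers in the Trpc2 values was not tested.

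Other cyclases, natriuretic receptors, calcium sensors, cyclic GMP-dependent kinases, cyclic nucleotide-gated channels and phosphodiesterases of all families were compared too. Among them, Gucy2c was the one that DESeq2 called for neo against KO. Its CPM did not overlap between neo and KO. The same was true of Npr3, Hpca, Vsnl1 and Pde4a, higher in neo, and of Ncald, Pde1a and Pde4d, lower in neo. They came from 8 other cyclases and natriuretic receptors, 4 calcium sensors and 18 other phosphodiesterases tested. None of the 2 kinases and 4 other channels tested lacked overlap. Over all genes, 7.58% were higher in neo without overlap and 7.98% lower. Gucy2c, the receptor cyclase for guanylin and uroguanylin in the gut, had 142, 157 and 150 counts in neo and 263, 367 and 279 counts in KO, against 279 counts in WT. In CPM these were 6.04, 9.38 and 9.97 in neo, 16.1, 19.7 and 15.4 in KO and 12.8 in WT. Every neo library lay below every KO library and below WT. The log2 fold change of neo against KO was −1.02 ± 0.21 (SE; edgeR adjusted p = 0.340), which did not pass the threshold, and DESeq2 gave an adjusted p of 0.00706. The pooled neo to KO ratio was 0.475, with a counting interval of 0.423 to 0.532. By mean TPM, Gucy2c was number 3 of 12 cyclases and natriuretic receptors (4.57 TPM), Gucy1b2 number 6 and Gucy2d number 8. Per library, the TPM of Gucy2c was 1.24, 2.70 and 2.24 times that of Gucy2d in neo and 9.66, 7.75 and 2.25 times in KO, against 2.70 times in WT.

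**Figure D5:**
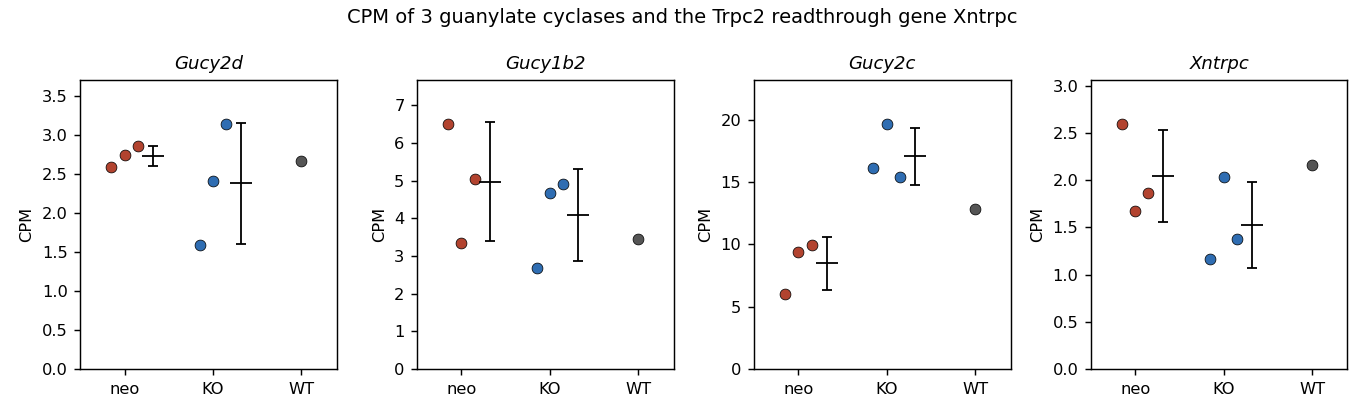
CPM of Gucy2d, Gucy1b2, Gucy2c and Xntrpc, with 1 point per library and the groups neo, KO and WT from left to right. Bars and whiskers give mean ± SD of 3 libraries. Gucy2c was 6.04 to 9.97 CPM in neo and 15.4 to 19.7 CPM in KO, while the other 3 genes overlap.

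Of the 10 other cyclases and natriuretic receptors, 8 were tested for neo against KO, with 4 positive and 4 negative log2 fold changes and a median of 0.07, beside −0.0022 over all genes. EdgeR called 0 of them, with 2 at an unadjusted p under 0.05, and Npr3, the natriuretic peptide clearance receptor, had 0.45 ± 0.15 (SE; adjusted p = 0.496). The ligand side was nearly silent: Guca2b (uroguanylin) was at 0 in all 7 libraries, and Guca2a (guanylin), Guca2b and Nts together reached at most 0.552 CPM. Of 7 calcium sensor genes, 4 were tested, and Hpca and Ncald, calcium-binding proteins known from rat to regulate the GC-D cyclase, had 0.88 ± 0.39 and −0.18 ± 0.09 (SE; edgeR adjusted p of 0.536 and 0.558). Hpca had 18, 15 and 16 counts in neo and 6, 13 and 7 counts in KO, against 9 counts in WT. The cyclic GMP-dependent kinases Prkg2 and Prkg1 had 0.29 ± 0.48 and −0.01 ± 0.12 (SE; edgeR adjusted p of 0.896 and 0.993).

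Ms4a receptors, a family of membrane proteins of the necklace neurons that macrophages also express, were tested for 6 of 17 members. Of these, 4 had positive and 2 negative log2 fold changes for neo against KO, with a median of 0.57, beside −0.0022 over all genes. EdgeR called 0 and 3 had an unadjusted p under 0.05. Ms4a7 had 0.63 ± 0.24 and Ms4a6b 0.54 ± 0.22 (SE; edgeR adjusted p of 0.502 and 0.522). Macrophage markers, summed over 8 of 8 detected genes, were 132 to 178 CPM in neo and 125 to 126 CPM in KO, against 112 CPM in WT. Of the 8, 7 had positive log2 fold changes, and Csf1r, the one with the highest level, had −0.047 ± 0.13 (SE; edgeR adjusted p = 0.945). EdgeR, DESeq2 and limma on TPM each called 0 of them, with 5 at an unadjusted p under 0.05. Their part in the Ms4a values was not tested. Ms4a5, Ms4a13 and Ms4a18 were at 0 in all 7 libraries.

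In the families of the effector enzymes and channels, no gene passed the edgeR threshold for neo against KO either. Among 23 other phosphodiesterases 18 were tested, with 7 positive, 11 negative, a median of −0.09 and 2 at an unadjusted p under 0.05, and Pde1a had −0.48 ± 0.19 and Pde4d −0.33 ± 0.13 (SE; edgeR adjusted p of 0.505 and 0.514). Among 15 other carbonic anhydrases 11 were tested, with 8 positive, 3 negative, a median of 0.22 and 1 at an unadjusted p under 0.05, and Car10 had 0.57 ± 0.25 and Car11 0.90 ± 0.51 (SE; edgeR adjusted p of 0.535 and 0.647). Neo replicate 1 alone was high for Car11, at 29.5 CPM, against 6.67 to 10.8 CPM in the other 6 libraries, and without it the value was 0.11. Of the 12 canonical transduction genes, 11 were positive, against 49.6% of all genes, with a median of 0.13. Some of them, such as Adcy3 and Cnga4, are also among the mature neuron markers above, so the 2 lists are not independent. Slc24a4 had 0.37 ± 0.14, Cnga4 0.29 ± 0.13 and Cnga2 0.13 ± 0.09 (SE, edgeR adjusted p of 0.502, 0.538 and 0.711). DESeq2 called none of the genes in these families or among the Ms4a, calcium sensor and kinase lists, and of the cyclases it called Gucy2c.

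Other cells that a dissection of the nose can hold were followed by their markers. Grueneberg ganglion neurons carry Gucy2g, which had 0 to 3 counts per library. The 4 ganglion markers summed to 7.29 to 9.17 CPM in neo and 7.93 to 10.38 CPM in KO, against 9.24 CPM in WT, led by Npr1 (−0.12 ± 0.19 for neo against KO; SE; edgeR adjusted p = 0.886). Autonomic ganglion markers, led by Prph, summed to 28.1 to 30.7 CPM in neo and 28.5 to 45.2 CPM in KO, against 66.8 CPM in WT. Sustentacular markers (led by Cyp2g1) summed to 2705 to 3356 CPM in neo and 2475 to 2701 CPM in KO, against 2996 CPM in WT. Immature neuron markers (led by Dpysl3) gave 1690 to 2216 CPM in neo and 2011 to 2188 CPM in KO, against 2172 CPM in WT, and ensheathing glia markers (led by Fabp7) 318 to 338 CPM in neo and 308 to 610 CPM in KO, against 287 CPM in WT. Endothelial markers (led by Pecam1) gave 171 to 199 CPM in neo and 161 to 207 CPM in KO, against 147 CPM in WT, and bulb neuron and glia markers (led by Aqp4) 546 to 560 CPM in neo and 450 to 519 CPM in KO, against 470 CPM in WT. Of the 8 bulb markers, 2 averaged under 1 count, and whether the Aqp4 signal came from bulb tissue was not tested. No marker of these lists was at 0 in all libraries, and for neo against KO edgeR called 0 of them and DESeq2 called Sult1c1 of the sustentacular list.

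The genes closest to each member across the 7 libraries were found by the root mean square difference of centred log2(CPM + 0.5) over 14937 genes. For Gucy2d these were Slc35d2 (0.0609), H2-Q2 (0.0622) and Commd4 (0.0623), and for Car2 they were Gnb5 (0.0342), Ing1 (0.0347) and Rheb (0.0375). For Gucy1b2 they were Chrnd (0.117), Hmga2 (0.132) and Hpse2 (0.137). None of these 9 genes was a member, but only Gucy2d, Car2 and Gucy1b2 were themselves among the 14937, so few members could appear. How close the best matches would lie by chance was not computed. Cnga3, Pde2a and Trpc2 averaged under 1 CPM and were not compared in this way.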

How the data were processed

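RNA from whole olfactory epithelium was sequenced in 7 libraries (3 neo, 3 KO, 1 WT) after poly(A) capture, per the labels' protocols. Whole-number gene counts were deposited, with Trimmomatic 0.35, STAR 2.5.1b and GRCm38 (mm10) named in the submitters' processing notes, and RSEM TPM per gene and transcript, per the file headers. Their deposited comparison gave log2 fold changes, p-values and a normalised signal per library, per the file headers, made with DESeq2 1.18.1, per the submitters' processing notes; its fold changes had the sign of KO minus neo in 99.6% of well-counted genes. Summary rows were left out, with 14.5 to 19.6% of reads multimapping and 0.666 to 0.865% ambiguous. FPKM was not used.

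The test on counts was edgeR 4.0.16 under R 4.3.3 (TMM, filterByExpr with minimum count 10 and total 15, robust quasi-likelihood), on 6 libraries for neo against KO and on all 7 against WT, assuming that the lone WT library varies like the others. TPM and transcripts were tested with limma 3.58.1 on log2(TPM + 0.1) at a mean of at least 0.5 TPM. Tests were two-sided, with Benjamini-Hochberg adjustment at 0.05. CPM used TMM over 7 libraries. Exon sharing came from GENCODE vM21, which held 45737 of 50600 gene identifiers, and promoters from RefSeq (GRCm38.p6). Fits were tested on simulated data. DESeq2 1.42.0, other size factors and filters, a replicate block and leaving out libraries were alternatives.

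Every pair of libraries differed by more than counting noise (smallest chi-square over degrees of freedom 8.96). Neo replicate 1 stood farthest apart, at 60.76 to 111.6 against each other library, including those of its own group. Pairs without it lay at 8.96 to 35.42. Whether each neo or KO library came from its own animal is not in the labels, and p-values reflect only the spread among these samples, which may be technical. The members and gene lists were chosen with earlier results of these data known. Genes named were all members, up to 2 genes with the smallest p of each related list where none was called, the leading marker of each other cell type, and the 3 genes most like each member; Gucy2c fell under that rule. Exon-sharing neighbours, Xist, Ddx3y, Car6, Cngb1, Cngb3, Pde1c, Pde4a, Vsnl1, Gucy2g, Guca2a, Guca2b, Nts, Sult1c1, Mmp9, Atp6v0d2 and the Ms4a genes at 0 fell outside that rule and were named after their values were seen. Gucy1a1 and Gucy1b1 were matched by identifier, and Ahsp was not analysed here. The list of related channels of the Trpc family is not reported here.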

Additional observations from a re-analysis of the deposited data

How the results depend on the processing

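No member was called in any comparison under any alternative, and of 578 alternatives for single genes and transcripts 2 passed the threshold, both for Gucy2c, neo against KO, at −1.02 with DESeq2 and −1.01 without the count filter. Replicate numbers did not pair the libraries (correlations of deviations between same-numbered neo and KO libraries −0.10, −0.05 and 0.20). The count of genes called for neo against KO was 3, and it was 40 without the count filter, 1 with at least 50 counts in 3 libraries, 1 with the replicate block, 96 with DESeq2, 1 with limma on TPM at either pseudocount, and 1 to 17 when leaving out 1 library, the 17 without neo replicate 1. For neo against WT the 2 calls became 7 without the filter, 1 with the replicate block, 3 with limma on TPM, 17 with a pseudocount of 1, and 2 to 6 leaving out 1 library. On TPM they became 451 without the TPM filter, 440 of them lower in neo, 12 with the replicate block, and 1 to 20 leaving out 1 library, the 20 without neo replicate 1. For KO against WT the 1 call became 2 without the filter, 6 with only those 2 groups, 15 with a TPM pseudocount of 1, and 1 to 4 leaving out 1 library, and on TPM 448 without the TPM filter, 442 of them lower in KO, 12 with the replicate block, and 1 to 10 leaving out 1 library, the 10 without neo replicate 1. For neo against KO the TPM calls were 0 without the TPM filter and 0 to 6 leaving out 1 library. Transcript calls were 0, 1 with a pseudocount of 1, and 0 to 2 leaving out 1 library.

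The following values changed direction; none had passed the threshold, and the cause was not tested. Per total gene counts instead of markers, the log2 ratio of neo to KO was 0.25 for Gucy2d and 0.047 for Cnga3, and that of Car2, −0.35 per marker, was −0.065 and lost its separation of the groups. Per marker, leaving out 1 library gave −0.30 to 0.24 for Gucy2d, −0.21 to 0.30 for Gucy1b2 and −0.043 to 0.48 for Xntrpc, and −0.46 to −0.30 for Car2, which kept its sign. For neo against KO, leaving out 1 library gave −0.024 to 0.44 for Gucy2d, −0.18 to 0.17 for Cnga3 (0.0029 without the filter), −0.21 to 0.75 for Prkg2, −0.044 to 0.025 for Prkg1, −0.058 to 0.16 for Meis2, −0.22 to 0.031 for Npr1 and −0.18 to 0.11 for Pde2a TPM. Prkg1 was 0.0080 under the stricter filter and 0.052 and 0.047 with limma on TPM (pseudocounts 0.1 and 1), where Npr1 was 0.19 and 0.15. Transcript ranges were −0.40 to 0.73 for Gucy1b2-201, −0.32 to 0.54 for Gucy1b2-203, −0.11 to 0.038 for Car2-201 and −1.57 to 1.147 for Pde2a-204, which was 0.038 with a pseudocount of 1. For neo against WT the ranges were −0.042 to 0.32 for Cnga3, −0.00094 to 0.10 for Car2, −0.27 to 0.060 for Xntrpc and −0.17 to 0.12 for Pde2a TPM. The replicate block gave −0.24 for Gucy2d, −0.067 for Car2 and 0.084 for Pde2a TPM there, and limma on TPM gave −0.13 and −0.081 for Gucy2d. For KO against WT the ranges were −0.41 to 0.060 for Gucy2d and −0.069 to 0.087 for Pde2a TPM. Low counts limit Gucy2d, Cnga3 and Gucy1b2, Pde2a and Trpc2 rest on TPM alone, and WT has 1 library.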
